A study of Mus musculus with 9 samples.

Results

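The 38 genes described here encode the machinery of fatty acid oxidation together with its regulators and several targets of the peroxisome proliferator-activated receptors (PPARs). They were taken by gene symbol from a list of the pathway that was chosen with earlier results of these data known. All 38 were found among the 56941 gene identifiers of the count table, and all 38 were among the 18548 genes that passed the filter on low counts. The RNA came from frozen pancreatic islets of C57Bl/6J males, wild type (WT) in every group, that were 15 weeks old when the diets began and stayed on them for 9 months. The control was a low fat diet (LFD, 10% fat, n = 3 libraries). The other groups received a high fat diet (HFD, 60% fat, n = 2) or a ketogenic diet (KD, 89.9% fat, n = 4). The stated question was how a ketogenic diet changes gene expression in islets. The labels do not say whether each library came from 1 animal or from a pool, so the p-values below measure the spread between libraries.

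Long-chain fatty acids enter cells partly through CD36, are activated to acyl-CoA by the ACSL enzymes, and cross the inner mitochondrial membrane as carnitine esters. Repeated cycles of dehydrogenation, hydration, a further oxidation and thiolysis then shorten the chain inside the mitochondrion, and a parallel pathway in peroxisomes handles very long and branched chains. The receptors PPAR alpha and PPAR delta bind fatty acids and, paired with RXR, switch on many of these genes, most prominently in liver, heart and muscle. In beta cells, fatty acid oxidation competes with the use of fatty acyl-CoA as a signal that supports insulin secretion.

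The libraries held between 15513502 and 26588390 counts. The 22 markers of acinar cells, the digestive enzyme producers that surround islets, took 15.1% to 35.7% of counts on LFD, 11.3% and 18.95% on HFD and 20.4% to 60.8% on KD; their mean log2 level in a library is called the acinar score below. On KD against LFD 21 of the 22 had a higher mean after scaling, with 0 called, 14 higher and 1 lower at an unadjusted p below 0.05; the lower one was Amy2a5, a pancreatic amylase, at 14.3 to 51.3 CPM on LFD and 2.11 to 12.1 on KD (log2 difference -2.40, adjusted p = 0.0580). The insulin genes took 4.77% to 8.02% on LFD, 9.54% and 10.6% on HFD and 1.44% to 11.1% on KD, so islet hormone RNA was present throughout while its share varied within KD. KD replicate 4 stood apart from the other 3 KD libraries, with 20.4% acinar counts against 44.8%, 56.4% and 60.8%. All 12 of 12 lymphocyte markers fell on KD against LFD, from 0.00857% to 0.155% of counts down to 0.000396% to 0.00144%. Markers of other cell types also took smaller shares on KD than on LFD, without overlap: duct at 0.0242% to 0.0385% against 0.0563% to 0.0613% (3 of 8 called lower), macrophage at 0.00197% to 0.00646% against 0.00805% to 0.0143% (1 of 7 called lower) and fibroblast or stellate at 0.00748% to 0.0227% against 0.0322% to 0.0556% (0 of 7 called, 5 lower at an unadjusted p below 0.05). These are shares of raw counts, not scaled levels. After scaling, the mean on KD was lower for 6 duct markers and higher for 2, and lower for all 7 macrophage and all 7 fibroblast or stellate markers. Delta and PP markers (1 of 4) and hepatocyte markers (1 of 6) were also called lower, with shares that overlapped. Their part in the members' differences was not tested. Of 9 adipocyte markers, 7 did not pass the low-count filter, among them Adipoq with 16 counts and Lep with 4 counts over all libraries. In bulk RNA, fewer cells of a type and less RNA per cell cannot be told apart. Levels below are CPM, counts set to a common library size, after scaling by the trimmed mean of M values (TMM), whose factors ran from 0.542 to 1.503. This scaling sets the sign of many small differences. With library totals alone, the median log2 difference between KD and LFD over all genes was -0.59 in place of -0.02, and that over the 38 genes was -0.17 in place of 0.38, so the 38 genes lay 0.41 above all genes by totals and 0.40 above them by TMM.

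Against LFD, the fatty acid oxidation genes were mostly at higher levels on KD, but Etfb alone passed the test. Etfb, the beta subunit of the electron transfer flavoprotein, rose 2.03-fold, while no member fell; 4.12% of all genes tested were called, 0.981% upward and 3.14% downward. The mean was higher in 35 of 38 genes by TMM scaling and in 4 of 38 by library totals alone, against 48.1% of all genes by TMM. The share of all genes by totals is not given here, but their median by totals was -0.59, so a lower mean there is not particular to the members. An unadjusted p below 0.05 with a higher level was found for 19 members and with a lower level for 0, against 10.8% and 11.9% of all genes. Every KD library lay above every LFD library in 10 members (9.69% of all genes) and below them in 1, Acsl5 (10.1%). Log2 differences over the members ran from -0.18 to 1.02. DESeq2 called 6 members higher and limma-voom 7, against 3.66% and 3.42% of all genes, and without KD replicate 4 edgeR called 10 (3.88%). The raw counts of the 38 genes added up to 0.122% to 0.152% of all counts on LFD and to 0.0819% to 0.171% on KD, ranges that overlap, whereas their summed CPM after TMM scaling was 1156.2 to 1216.5 on LFD and 1407.1 to 1513.2 on KD. Whether the sums of the diets overlap thus depends on the scaling.

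**Figure D1:**
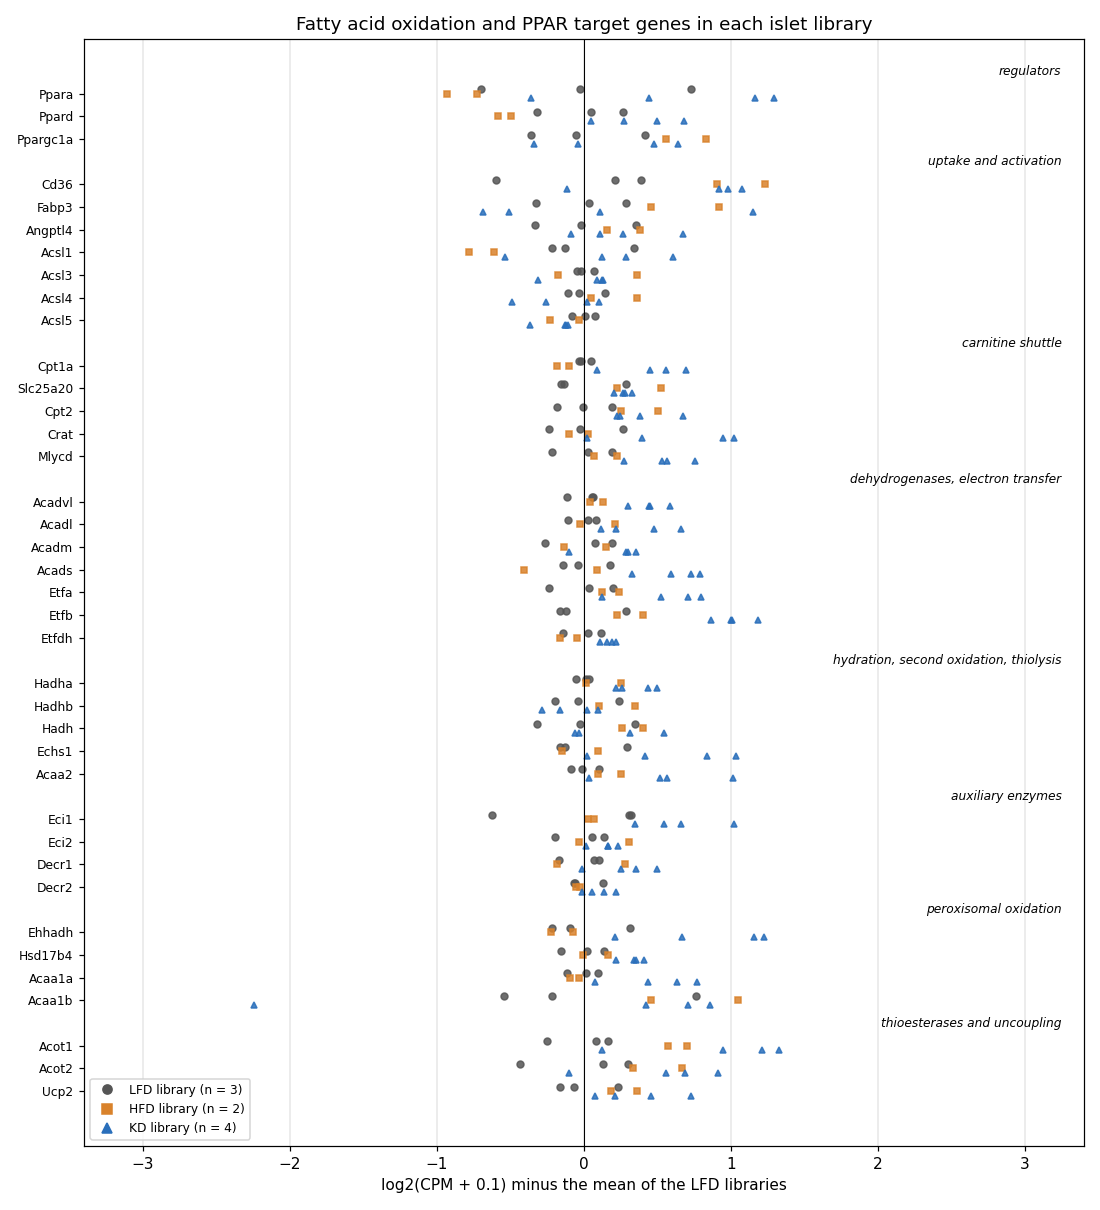
Level of each of the 38 genes in each library as log2(CPM + 0.1) minus the mean of the 3 LFD libraries, ordered by role; grey circles are LFD, orange squares HFD and blue triangles KD. Most KD triangles lie to the right of the LFD circles, Etfb has all 4 KD libraries clear of LFD and HFD, and the far left point is Acaa1b in a KD library with 0 counts.

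The promoters of 4 genes are shown because these genes stand for the patterns described below: Etfb passed the test, Acadvl and Cpt1a had KD libraries clear of LFD, and Echs1 followed the acinar share within KD. Each line is the 250 bases upstream of the RefSeq start on the GRCm38.p6 build, 5′ to 3′ on the gene's strand, and capitals mark AGGTCA, the hexamer that PPAR and RXR recognise as a repeat, or its reverse complement. The stretches are chr7:43443822-43444071 on the plus strand for Etfb, chr11:70015429-70015678 on the minus strand for Acadvl, chr19:3323051-3323300 on the plus strand for Cpt1a and chr7:140116422-140116671 on the minus strand for Echs1.
Etfb: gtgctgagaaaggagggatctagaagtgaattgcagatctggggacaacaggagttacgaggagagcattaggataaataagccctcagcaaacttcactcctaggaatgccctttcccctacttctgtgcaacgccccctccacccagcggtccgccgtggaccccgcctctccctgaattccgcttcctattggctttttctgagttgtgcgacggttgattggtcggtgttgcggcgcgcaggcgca
Acadvl: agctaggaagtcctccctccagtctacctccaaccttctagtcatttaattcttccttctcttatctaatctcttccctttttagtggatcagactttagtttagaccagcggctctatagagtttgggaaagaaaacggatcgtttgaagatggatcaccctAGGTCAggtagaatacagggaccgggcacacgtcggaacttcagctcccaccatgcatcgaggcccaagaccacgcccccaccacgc
Cpt1a: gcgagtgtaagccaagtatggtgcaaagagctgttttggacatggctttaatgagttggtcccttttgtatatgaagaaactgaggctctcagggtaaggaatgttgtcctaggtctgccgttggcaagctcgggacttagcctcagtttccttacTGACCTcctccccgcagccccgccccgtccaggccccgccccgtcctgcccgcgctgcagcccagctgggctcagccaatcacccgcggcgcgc
Echs1: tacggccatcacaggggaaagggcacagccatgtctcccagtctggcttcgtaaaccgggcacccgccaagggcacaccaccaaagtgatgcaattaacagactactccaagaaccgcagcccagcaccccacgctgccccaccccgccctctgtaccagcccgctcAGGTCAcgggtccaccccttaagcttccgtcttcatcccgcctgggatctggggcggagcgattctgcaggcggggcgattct
The Etfb stretch holds no such hexamer, and the other 3 stretches hold 1 each. Windows of 250 bases before to 50 after the start were matched for 33 of the 38 genes (34 windows) and searched on both strands. The full element, AGGTCA repeated directly with 1 base between the copies, was in 0 of the 34 windows and in 0.0396% of 32851 windows of all genes. A looser form of it, with any base in place of the T of each copy, was also in 0 of 34 and in 0.381% of all windows. The single hexamer, a search added after the repeats were counted, was in 5 of 34 windows (Acadm, Cd36, Echs1, Acadvl and Cpt1a), which is 14.7% against 16.3% of all windows. These matches describe letters in short windows and say nothing of binding elsewhere.

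The regulators did not pass the test on KD against LFD (0 of 3, and 0 at an unadjusted p below 0.05). Ppara, the receptor that drives hepatic fatty acid oxidation in fasting, was at 4.97, 2.91 and 1.78 CPM on LFD, at 1.75 and 1.51 on HFD and at 7.39, 4.05, 6.77 and 2.29 on KD. LFD and KD overlapped, and both HFD libraries lay below all others. Its log2 difference between KD and LFD was 0.66 (SE 0.44, adjusted p = 0.394 by edgeR), and with the acinar score in the fit it was -0.21. Ppard, the more widely expressed receptor, was at 28.1, 24.2 and 18.7 CPM on LFD, 16.5 and 15.5 on HFD and 37.4, 28.2, 33.0 and 24.1 on KD. The difference between KD and LFD was 0.37 (SE 0.18, adjusted p = 0.246), and again the HFD libraries were the lowest. Ppargc1a, the coactivator PGC-1 alpha that promotes mitochondrial gene expression, had another order, with 7.73, 9.59 and 13.3 CPM on LFD, 17.8 and 14.7 on HFD and 7.86, 9.67, 13.9 and 15.5 on KD. KD and LFD overlapped (0.20, SE 0.26, adjusted p = 0.680).

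Uptake and activation genes had the lowest median of the role groups, with 0 of 7 called, 1 at an unadjusted p below 0.05 and a median log2 difference of 0.15 between KD and LFD. Cd36, the fatty acid translocase, was at 20.2, 17.9 and 10.1 CPM on LFD, 36.4 and 29.0 on HFD and 30.5, 32.5, 14.2 and 29.2 on KD. KD replicate 3 lay within the LFD range and the other 3 KD libraries lay above it (0.74, SE 0.30, adjusted p = 0.176). Angptl4, a secreted inhibitor of lipoprotein lipase and a classical PPAR target, was at 4.78, 5.96 and 7.79 CPM on LFD, 6.75 and 7.92 on HFD and 5.68, 7.31, 9.71 and 6.54 on KD, with all groups overlapping (0.24, SE 0.24, adjusted p = 0.596). Acsl5, an acyl-CoA synthetase, was the only member with every KD library below LFD, at 39.2, 41.1 and 37.0 CPM on LFD and 35.7, 36.2, 30.3 and 35.9 on KD, with 33.3 and 38.3 on HFD. That difference was -0.18 (SE 0.12, adjusted p = 0.399). The other synthetases did not separate by diet on KD against LFD, with mean levels on LFD and KD of 34.8 and 38.7 CPM for Acsl1, 11.2 and 11.3 for Acsl3 and 35.0 and 31.7 for Acsl4. Fabp3, a cytosolic fatty acid carrier, was low at 1.46 CPM on LFD and 1.68 on KD, and 29.2% of its 50-base stretches also occur elsewhere among transcripts, chiefly in the pseudogene Fabp3-ps1.

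Genes of the carnitine shuttle had a median difference of 0.46 between KD and LFD, with 0 of 5 called and 4 of 5 at an unadjusted p below 0.05. Cpt1a, the malonyl-CoA sensitive gatekeeper of mitochondrial import, was at 65.5, 68.6 and 64.8 CPM on LFD, 58.4 and 61.7 on HFD and 107, 97.7, 90.8 and 70.5 on KD. All KD libraries were above the others, with KD replicate 4 close to LFD, and the difference was 0.46 (SE 0.14, adjusted p = 0.0934). Without KD replicate 4 it was 0.57 (adjusted p = 0.0247). Mlycd, malonyl-CoA decarboxylase, which removes the inhibitor of CPT1, was at 22.01, 24.6 and 18.6 CPM on LFD, 22.7 and 25.2 on HFD and 36.5, 31.9, 31.3 and 26.1 on KD. KD lay above LFD in every library (0.53, SE 0.15, adjusted p = 0.0725). Crat, carnitine acetyltransferase, was at 12.8, 15.7 and 11.1 CPM on LFD, 13.4 and 12.2 on HFD and 25.3, 17.2, 26.6 and 13.3 on KD. KD replicate 4 sat within the LFD range (0.63, SE 0.24, adjusted p = 0.148). Cpt2, which reforms acyl-CoA in the matrix, averaged 22.3 ± 2.92 CPM on LFD (SD, n = 3) and 29.1 ± 4.42 on KD (SD, n = 4), with KD replicate 4 the highest library at 35.4. Slc25a20, the carnitine-acylcarnitine carrier, averaged 11.6 ± 2.10 and 13.8 ± 0.475 CPM, with overlap.

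The acyl-CoA dehydrogenases and the electron transfer chain from them to ubiquinone held the 1 gene that rose. Etfb was at 6.62, 4.97 and 4.83 CPM on LFD, 6.35 and 7.21 on HFD and 10.97, 9.93, 12.5 and 10.98 on KD. No KD library overlapped with any other, KD replicate 4 included, and the log2 difference was 1.02 (SE 0.19, adjusted p = 0.0180). Leaving out single libraries moved the adjusted p between 0.0238 and 0.0652, with the call lost without LFD replicate 2 or KD replicate 3. By annotation 44.8% of the 50-base stretches of Etfb also occur in other transcripts, chiefly in Gm45233, which overlaps it on the same strand by 617 exon bases and held 0 to 6 counts per library. How reads shared by both were counted is not given in the sources used here. Its partner subunit Etfa was at 34.4, 25.5 and 30.7 CPM on LFD, 35.4 and 32.6 on HFD and 52.1, 43.2, 49.1 and 32.6 on KD. KD replicate 4 lay within the LFD range (0.55, SE 0.17, adjusted p = 0.0940). Acadvl, which starts the cycle on very long chains, was at 36.5, 36.7 and 32.5 CPM on LFD, 38.6 and 36.2 on HFD and 53.0, 48.1, 43.4 and 47.8 on KD. Every KD library lay above LFD and HFD, and the difference of 0.45 missed the threshold (SE 0.12, adjusted p = 0.0562).

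The remaining genes of this group were less far apart. Acads, the short-chain dehydrogenase, averaged 8.29 ± 0.971 CPM on LFD and 12.7 ± 1.73 on KD without overlap (0.61, SE 0.19, adjusted p = 0.0951). Acadl, the long-chain dehydrogenase, averaged 28.8 ± 1.93 and 37.6 ± 6.47, also without overlap (0.38, adjusted p = 0.164). Acadm, the medium-chain enzyme, averaged 16.4 ± 2.61 and 18.9 ± 2.58, and Etfdh, which passes the electrons to ubiquinone, 33.1 ± 2.97 and 37.1 ± 1.19; both overlapped.

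**Figure D2:**
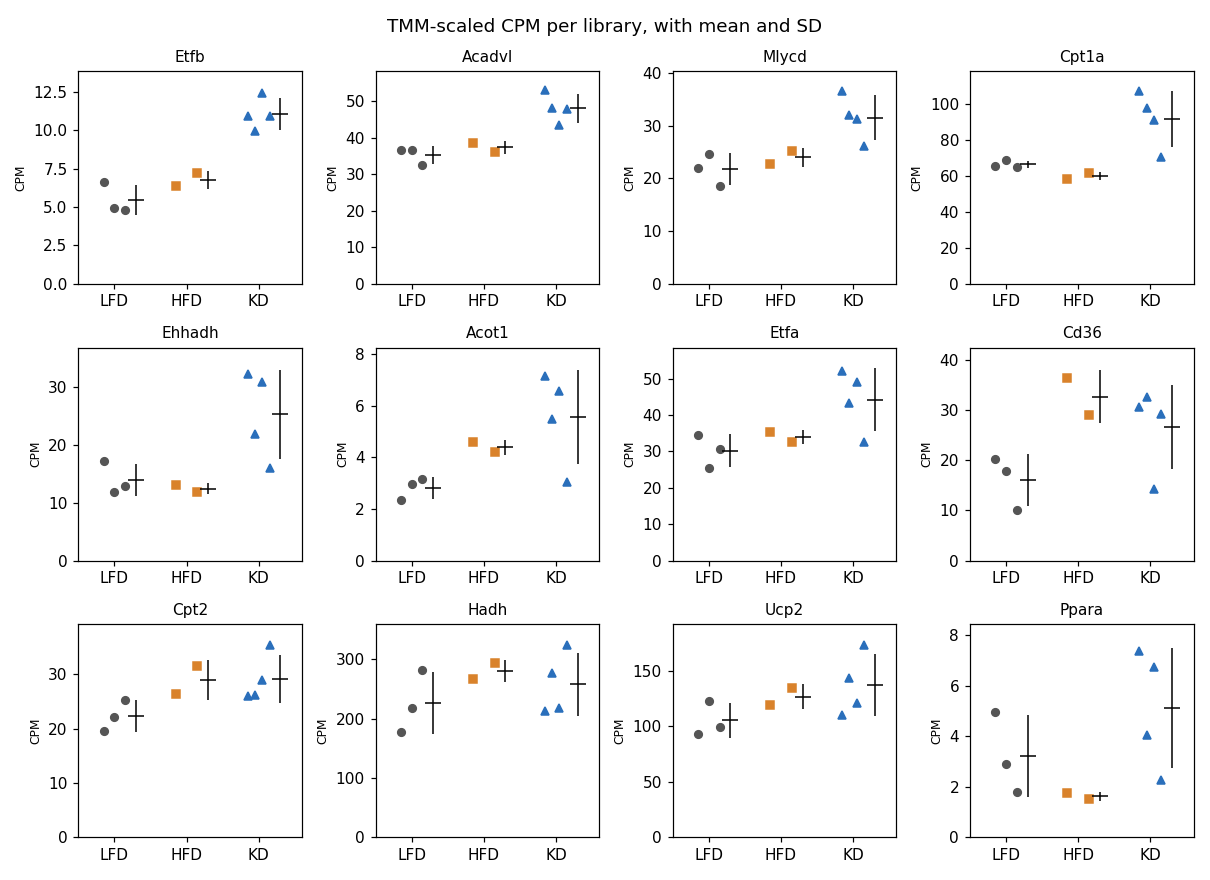
TMM-scaled CPM of 12 of the genes in each library by diet, with the mean and SD of each diet beside the points (LFD n = 3, HFD n = 2, KD n = 4). Etfb on KD lies at 9.93 to 12.5 CPM, above LFD and HFD, whereas in Ehhadh, Acot1 and Etfa the lowest KD point is replicate 4.

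For the hydration, further oxidation and thiolysis steps, 0 of 5 genes were called, 3 were at an unadjusted p below 0.05 and the median difference was 0.36. Hadha, the alpha subunit of the trifunctional protein, was at 85.5, 86.5 and 81.6 CPM on LFD, 85.2 and 101 on HFD and 119, 101, 98.5 and 114 on KD. KD lay above LFD throughout (0.36, SE 0.12, adjusted p = 0.119). The beta subunit of the same complex, Hadhb, averaged 71.3 ± 11.1 CPM on LFD and 67.1 ± 7.95 on KD (-0.09, adjusted p = 0.768), so the paired subunits did not have the same direction; their difference was not tested. Of the 50-base stretches of Hadhb, 19.7% occur in other transcripts. Echs1, the short-chain enoyl-CoA hydratase, was at 36.9, 26.9 and 27.5 CPM on LFD, 32.2 and 27.2 on HFD and 61.9, 40.2, 53.8 and 30.5 on KD. Its KD libraries ran in the order of their acinar shares (0.61, SE 0.23, adjusted p = 0.141). Acaa2, the mitochondrial thiolase, was at 25.0, 21.9 and 23.03 CPM on LFD, 24.9 and 27.8 on HFD and 47.1, 34.5, 33.3 and 23.8 on KD. Again KD replicate 4 lay within LFD (0.57, SE 0.20, adjusted p = 0.118). Hadh, the short-chain 3-hydroxyacyl-CoA dehydrogenase known in beta cells as a brake on glutamate dehydrogenase, averaged 226 ± 52.9 CPM on LFD and 258 ± 53.2 on KD, with overlap.

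Auxiliary enzymes, which prepare unsaturated chains, had 0 of 4 called and 1 at an unadjusted p below 0.05. Eci1, an isomerase of mitochondria, was at 11.8, 11.8 and 6.10 CPM on LFD, 9.95 and 9.68 on HFD and 19.4, 13.9, 15.1 and 12.1 on KD. The KD libraries were all higher, by a narrow margin in replicate 4 (0.61, SE 0.25, adjusted p = 0.172). Eci2, an isomerase found in mitochondria and peroxisomes, was at 47.3, 39.7 and 49.995 CPM on LFD, 56.2 and 44.4 on HFD and 53.3, 46.0, 51.0 and 51.0 on KD, with no separation (0.14, SE 0.13, adjusted p = 0.560). Decr1, the mitochondrial dienoyl-CoA reductase, was at 16.3, 13.5 and 15.99 CPM on LFD, 18.5 and 13.4 on HFD and 21.5, 19.5, 18.2 and 15.1 on KD (0.28, SE 0.17, adjusted p = 0.359). Its peroxisomal counterpart Decr2 averaged 18.4 ± 1.44 and 19.7 ± 1.39 CPM on LFD and KD. These 3 genes overlapped between LFD and KD.

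Peroxisomal oxidation had 0 of 4 called and 3 of 4 at an unadjusted p below 0.05 on KD against LFD. Ehhadh, the bifunctional enzyme and a strong PPAR alpha target in liver, was at 17.1, 11.8 and 12.9 CPM on LFD, 13.1 and 11.8 on HFD and 32.2, 21.9, 30.8 and 15.95 on KD. Replicate 4 lay within LFD and the other 3 KD libraries above it (0.85, SE 0.24, adjusted p = 0.0704). Without that library the difference was 1.02 (adjusted p = 0.0212), and with the acinar score in the fit it was 0.38 (adjusted p = 0.196). Acaa1a, the peroxisomal thiolase, was at 35.3, 37.4 and 32.3 CPM on LFD, 32.8 and 34.1 on HFD and 59.5, 47.2, 54.3 and 36.8 on KD. Its pattern over the KD libraries was the same, with replicate 4 inside LFD (0.50, SE 0.16, adjusted p = 0.101). Hsd17b4, the other bifunctional enzyme, was at 25.6, 23.6 and 20.9 CPM on LFD, 23.2 and 26.1 on HFD and 29.6, 29.8, 27.2 and 31.0 on KD. Here replicate 4 was the highest library and no KD library overlapped with LFD (0.33, SE 0.12, adjusted p = 0.146). Acaa1b, a near copy of Acaa1a, was close to the detection floor at 0.307, 0.224 and 0.704 CPM on LFD, 0.550 and 0.880 on HFD and 0, 0.757, 0.534 and 0.672 on KD (0.30, SE 0.79, adjusted p = 0.859). It shares 30.5% of its 50-base stretches, so its few reads are uncertain.

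Thioesterases and uncoupling had 0 of 3 called and 2 at an unadjusted p below 0.05. Acot1, a cytosolic thioesterase that returns acyl-CoA to free fatty acid, was at 2.33, 2.96 and 3.14 CPM on LFD, 4.60 and 4.19 on HFD and 7.16, 5.48, 6.59 and 3.05 on KD. All libraries of HFD and 3 of 4 on KD lay above LFD (0.97, SE 0.30, adjusted p = 0.0953). Acot2, its mitochondrial neighbour, was at 3.13, 5.29 and 4.69 CPM on LFD, 6.85 and 5.41 on HFD and 3.97, 8.11, 6.95 and 6.32 on KD (0.54, SE 0.28, adjusted p = 0.281). Acot1 and Acot2 share 19.2% and 27.7% of their 50-base stretches with other transcripts, chiefly with each other, so reads may have been split between them. Ucp2, the mitochondrial carrier studied in beta cells as a modulator of secretion, was at 93.4, 123 and 99.6 CPM on LFD, 119 and 135 on HFD and 110, 144, 121 and 173 on KD. Replicate 4 was the highest, and the groups overlapped (0.38, SE 0.17, adjusted p = 0.213).

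Within KD, the acinar share moved with many of these levels. KD replicates 1 to 3 all lay above every LFD library in 22 of 38 members (15.97% of all genes), and in 10 of those 22 KD replicate 4 did too. Over all genes, KD replicate 4 did so in 1797 of 2963. Replicate 4 was the lowest KD library in 18 of 38 members (28.8% of all genes), and replicate 1, with the highest acinar share, was the highest in 20 of 38 (31.5%). Among LFD libraries, replicate 1, with the highest acinar share there, was the highest in 14 of 38 members (28.6% of all genes). LFD replicate 3, with the lowest share there, was the lowest in 17 of 38 (40.5%). With the acinar score as a covariate, the difference between KD and LFD was smaller in 23 members and larger in 15. Of the 19 members at an unadjusted p below 0.05, 15 had a smaller difference and 8 stayed below 0.05. The same counts over all genes are not given here. In that fit 4 members rose on KD, against 2.66% of all genes: Etfb (0.94, adjusted p = 0.0199), Cpt2 (0.60, adjusted p = 0.0224), Ucp2 (0.61, adjusted p = 0.0229) and Hadh (0.52, adjusted p = 0.0325). Cpt2, Hadh and Ucp2 had their highest KD level in replicate 4, the library with the lowest acinar share. Echs1 moved from 0.61 to 0.15 in the same fit, and Acadvl from 0.45 to 0.40. The lymphocyte markers, whose summed levels do not overlap between LFD and KD, move with the diet in every library, and with their score in the fit 0 members and 0 of all 18548 genes were called by edgeR (Etfb 1.03, adjusted p = 0.454); their part in these differences cannot be told apart from that of the diet.

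**Figure D3:**
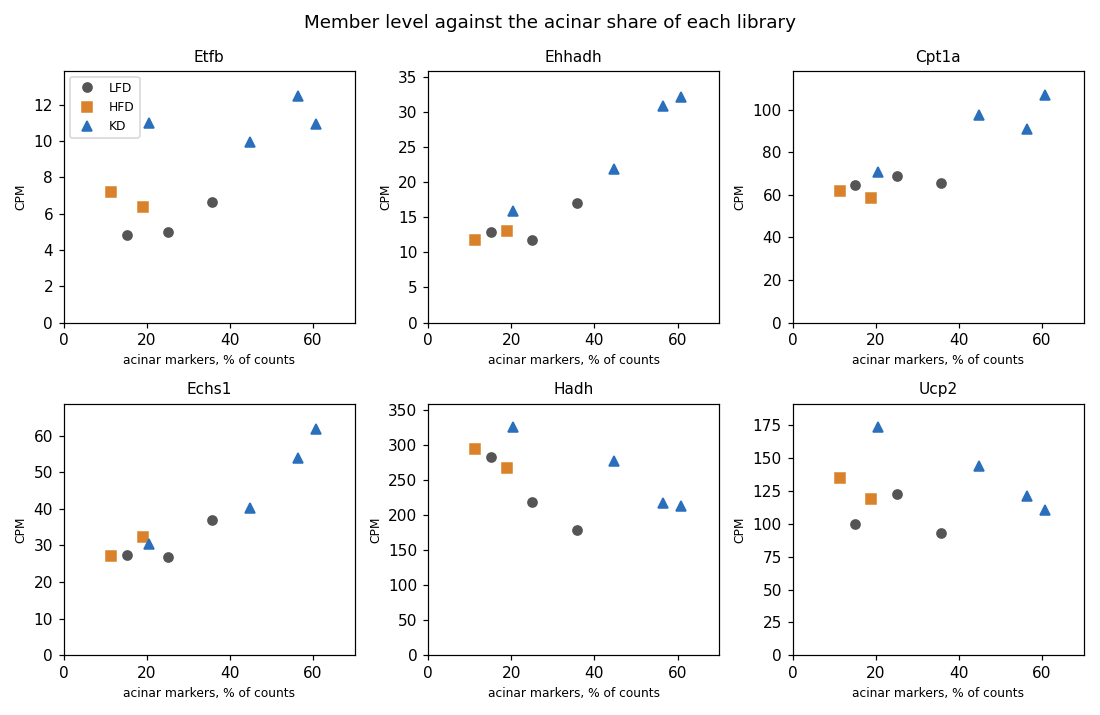
CPM of 6 of the genes in each library against the share of its counts in 22 acinar markers (grey circles LFD, orange squares HFD, blue triangles KD). Echs1 and Ehhadh are highest in the 3 KD libraries with the largest shares, while LFD replicate 2, at 25.0%, lies below libraries with smaller shares; Hadh is lower in the libraries with larger shares within LFD and within KD, and Etfb is at 9.93 to 12.5 CPM on KD over shares of 20.4% to 60.8%.

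**Figure D4:**
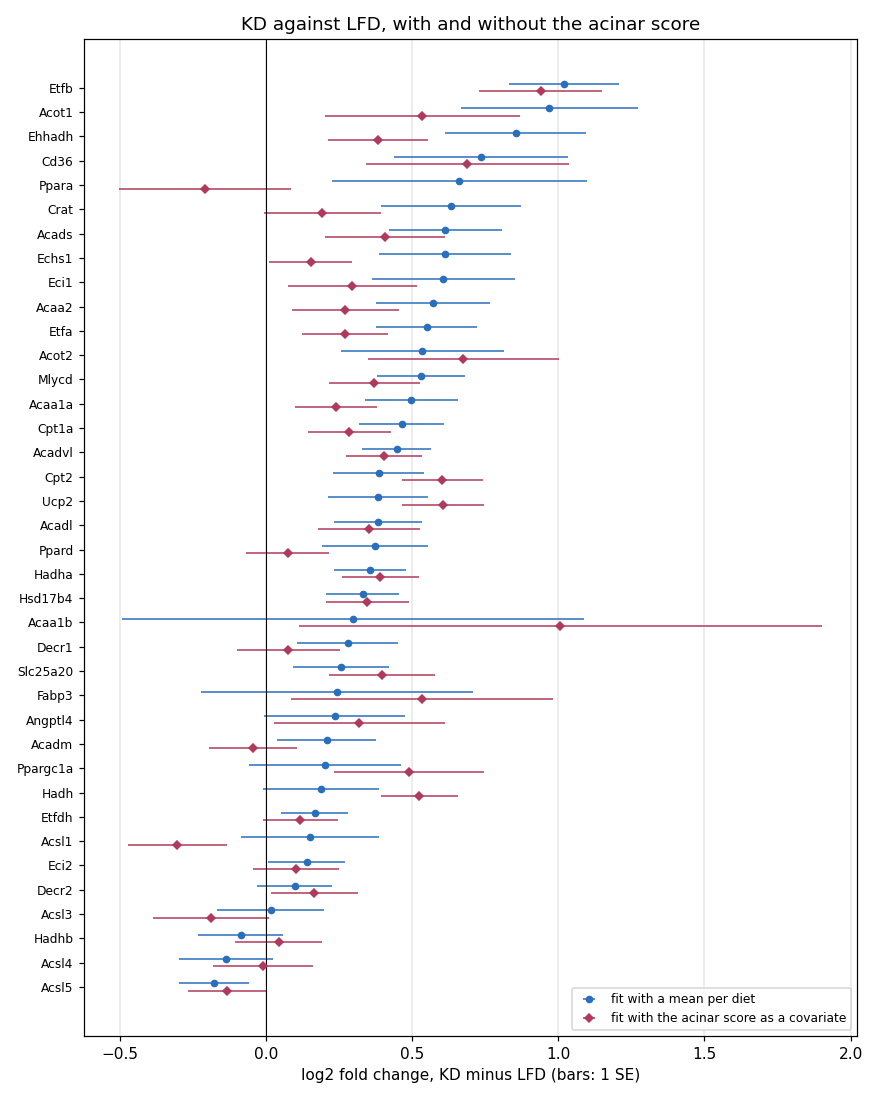
Log2 difference between KD and LFD for the 38 genes with 1 SE, from the fit with a mean per diet (blue circles) and from the fit that also holds the acinar score (red diamonds). The difference of Etfb is 1.02 and 0.94 in the 2 fits, whereas Ppara moves from 0.66 to -0.21 and Hadh from 0.19 to 0.52.

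HFD against LFD called no member, and no gene at all (0.00%), by edgeR. At an unadjusted p below 0.05, 2 members were higher (Cd36 and Ppargc1a) and 2 lower (Ppard and Acsl1), against 3.55% and 6.44% of all genes, or 9.99% in either direction. DESeq2 and limma-voom also called 0 members, against 1.44% and 0.0539% of all genes. The mean was higher in 25 members (49.8% of all genes), every HFD library lay above LFD in 6 and below it in 4 (13.4% and 14.1% of all genes), and the median over the members was 0.13. Cd36 had the largest difference, 1.03 (SE 0.34, adjusted p = 0.400), with both HFD libraries above LFD. Endothelial markers, from a cell type that also makes CD36, took 0.0844% and 0.0945% of counts on HFD, 0.0463% to 0.0506% on LFD and 0.0214% to 0.0562% on KD, and all 7 of 7 had a higher mean on HFD than on LFD, with 0 called and 4 at an unadjusted p below 0.05; their part in the Cd36 level was not tested. Ppargc1a differed by 0.67 (SE 0.30, adjusted p = 0.495), Ppara by -0.97 (SE 0.54, adjusted p = 0.572), Ppard by -0.56 (SE 0.22, adjusted p = 0.449) and Acsl1 by -0.72 (SE 0.29, adjusted p = 0.461). With 2 libraries on HFD, these intervals are wide.

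KD against HFD, the direct comparison of the diets rich in fat, also called no member and no gene (0.00%), by edgeR. A higher level at an unadjusted p below 0.05 was found for 13 members and a lower level for 0, against 12.1% and 10.6% of all genes. DESeq2 called 7 members higher (5.58% of all genes). By limma-voom, 0 members and 0.00% of all genes were called higher. The mean was higher in 27 members (46.6% of all genes), and every KD library lay above HFD in 14 and below it in 1, Hadhb (15.7% and 18.2% of all genes). The regulators had the largest median of the role groups, 0.93, but not 1 direction. Ppara was at 1.63 (SE 0.53, adjusted p = 0.132) and Ppard at 0.93 (SE 0.21, adjusted p = 0.124), both without overlap. Ppargc1a was lower on KD, at -0.47 (SE 0.28, adjusted p = 0.349), with overlap. Ehhadh differed by 1.02 (SE 0.28, adjusted p = 0.124), Acsl1 by 0.87 (SE 0.28, adjusted p = 0.129), Etfb by 0.71 (SE 0.21, adjusted p = 0.125) and Cpt1a by 0.61 (SE 0.17, adjusted p = 0.124). With the acinar score in the fit, all 13 were smaller and 0 of the 13 stayed at an unadjusted p below 0.05. The same counts over all genes are not given here, so this may not be particular to the members. The acinar markers themselves were higher on KD than on HFD in 22 of 22 by mean, with 0 called and 21 at an unadjusted p below 0.05. Acinar shares did not overlap between KD and HFD, and their part in the members' differences was not tested. Without KD replicate 4, 9 members were called (6.39% of all genes were called upward in that fit). KD against HFD and KD against LFD share the KD libraries, so their values are not independent. In the joint test over the 3 diets, Etfb was the 1 member called (2.17% of all genes).

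Other genes of the pathway, 74 in a wider list, gave 63 that passed the low-count filter. On KD against LFD, 2 of these rose and 2 fell, against 0.981% and 3.14% of all genes, with a median of 0.11. Creb3l3, a liver and gut enriched transcription factor that works with PPAR alpha, was at 0.613, 0.403 and 0.469 CPM on LFD, 1.401 and 1.93 on HFD and 16.96, 9.62, 13.8 and 5.69 on KD. It rose by 4.53 on the log2 scale (SE 0.43, adjusted p = 0.00158), with KD replicate 4 the lowest of its group, and by 3.86 with the acinar score in the fit (adjusted p = 0.000271). It stayed past the threshold when any single library was left out. Txnip, an inhibitor of thioredoxin, fell by 0.87 (SE 0.19, adjusted p = 0.0299), from 768, 613 and 647 CPM to 452, 402, 312 and 316, with 467 and 344 on HFD. Its call was lost without LFD replicate 1 or 2 or KD replicate 2 or 3 (adjusted p 0.0669 to 0.111). Vnn1, a pantetheinase, fell 2.23-fold (SE 0.29 on the log2 scale, adjusted p = 0.0479), from 3.43, 4.30 and 4.31 CPM to 2.41, 2.005, 1.34 and 1.43, with 1.75 and 1.89 on HFD. Leaving out any 1 of the 9 libraries ended that call (adjusted p 0.0544 to 0.127). On HFD against LFD, a comparison that shares the LFD libraries, edgeR called 0 of the 63 and DESeq2 1 (1.44% of all genes). At an unadjusted p below 0.05, 3 were higher and 6 lower, against 3.55% and 6.44% of all genes. On KD against HFD, edgeR called 0 and DESeq2 6 (8.18% of all genes), with 14 higher and 4 lower at that level, against 12.1% and 10.6% of all genes.

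The other genes of the wider list that are named here did not pass the test on any contrast by edgeR. Acacb, which makes the malonyl-CoA that restrains CPT1, was at 22.9, 18.1 and 14.6 CPM on LFD, 15.9 and 8.67 on HFD and 95.5, 42.5, 66.0 and 16.8 on KD. KD replicate 4 lay within LFD, far below the other 3 (1.57, SE 0.53, adjusted p = 0.127). Among receptors' cofactors, Pprc1 differed by 0.56 (adjusted p = 0.238) and Ppargc1b by 0.67 (adjusted p = 0.219). The fatty acid transporter Slc27a4 differed by 0.38 (adjusted p = 0.106), with KD at 32.3 to 36.6 CPM and LFD at 25.6 to 29.2. In mitochondria, Acat1, the acetoacetyl-CoA thiolase, differed by 0.37 (adjusted p = 0.111) and Acad11 by 0.29 (adjusted p = 0.158). In peroxisomes, the thioesterase Acot8 differed by 0.55 (adjusted p = 0.113). Slc27a4, Acat1, Acad11 and Acot8 had no overlap between KD and LFD. Over the 63 genes of the wider list, every KD library lay above LFD in 9 and below it in 3, against 9.69% and 10.1% of all genes. The muscle isoform Cpt1b, the liver carrier Fabp1, the uncoupling proteins Ucp1 and Ucp3 and the 4 Cyp4a genes, standard PPAR alpha targets in liver, did not pass the filter.

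Levels per length of the principal transcript placed Hadh first, at 126.5 CPM per kilobase on LFD, 156.5 on HFD and 144.2 on KD. Hadhb (34.8 on LFD), Ucp2 (26.4), Eci2 (26.2) and Etfa (21.7) followed. Cpt1a stood at 15.4 CPM per kilobase on LFD and 21.2 on KD. Etfb stood at 6.13 on LFD, below its partner Etfa, and at 12.4 on KD. Other transcripts hold 44.8% of the 50-base stretches of Etfb and 2.88% of those of Etfa. How shared reads were counted is not given, so these levels may not be comparable between the subunits. The receptor Ppara ranked 37 of 38, at 0.944 CPM per kilobase on LFD, 0.478 on HFD and 1.502 on KD, and Acaa1b was the lowest, at 0.244 on LFD.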

How the data were processed

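Poly(A) RNA of 9 islet libraries (LFD 3, HFD 2, KD 4) was prepared with a directional kit, per the labels' protocols. The authors deposited 1 table of raw counts per Ensembl gene. Per the submitters' processing notes, cutadapt 1.16, STAR 2.7.9a, featureCounts 1.6.3 and DESeq2 1.40.2 were used with GRCm39 (mm39); the counting settings are not given in the sources used here. Of 56941 identifiers, 51948 matched a symbol. From these counts, edgeR 4.0.16 (R 4.3.3) filterByExpr kept 18548 genes, and 1 quasi-likelihood model with TMM scaling and a mean per diet was fitted to all 9 libraries. Tests were two-sided, with Benjamini-Hochberg adjustment over all 18548 genes and a threshold of 0.05; SE is the log2 difference divided by the root of F. Alternatives used DESeq2 1.42.0, limma 3.58.1, other scalings, filters and covariates, a replicate block and single libraries left out. The scripts were tested on simulated data, where the KD against LFD test called 35.4% of 2-fold and 72.4% of 4-fold changes. A gene that was not called may therefore still differ. The main fit did not pair libraries by replicate number, and the sample titles do not say whether equal numbers mean a pairing. No library was a copy of another. The members, role groups, wider list and markers were chosen with earlier results of these data known. Every member is named; full values are given for members past the threshold in any contrast, for the 3 members of each role group with the lowest unadjusted p for KD against LFD, and for Ppara, Cpt1a, Angptl4, Ucp2, Acaa1a, Acaa1b, Acot1 and Acot2. In the wider list, genes past the threshold and those leading each group by p are named, except for some that are not reported here. Transcript lengths and shared 50-base stretches come from GENCODE M21 (GRCm38), and promoters from RefSeq (GRCm38.p6), which is not the authors' build, so no coordinates were joined to the counts.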

Additional observations from a re-analysis of the deposited data

Results flagged for a closer look

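Within the 4 KD libraries, 1 library lay far from the other 3 in 3 of the 38 genes, measured as its gap to the nearest library over the whole range. This criterion marks about 1 in 20 groups by chance. Acsl5 had KD replicate 3 low, at 30.3 CPM against 35.7 to 36.2 in the others, with a gap of 0.921 of the range. Acsl3 had KD replicate 4 low, at 8.96 CPM against 11.8 to 12.2, with a gap of 0.886. Acadm had KD replicate 4 low, at 15.1 CPM against 19.8 to 20.8, with a gap of 0.833. KD replicate 4 is also the KD library with the smallest acinar share, 20.4% of counts; its part in the levels of Acsl3 and Acadm was not tested.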

How the results depend on the processing

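Depth was lowest for Acaa1b (95 counts over all libraries), followed by Fabp3 (321), Ppara (568), Acot1 (720) and Acot2 (987); how far counting error and the spread between libraries each limit the tests was not separated. Over the alternatives, values of single genes kept direction and call in 1187 cases, gained the call in 66, lost it in 36 and changed sign in 44. The cause of each change below was not tested unless the alternative uses fewer libraries or genes. For KD against LFD, 1 member was called, beside 4.12% of all genes. The alternatives gave, each with its share of all genes called, 6 (DESeq2, 9.56%), 7 (limma-voom, 10.1%), 2 (no low-count filter, 3.42%), 4 (acinar score, 7.12%), 0 (lymphocyte score, 0 of all genes), 0 (acinar and lymphocyte scores, 0.911%, chosen after seeing the data) and 0 (library totals without TMM, 8.91%, likewise chosen after). Single libraries left out gave 0 to 10: 10 when it was KD replicate 4 (7.40%) and 0 when it was LFD replicate 2 (1.24%) or KD replicate 3 (0.822%). The wider list went from 4 to 2 without the filter, 0 with the lymphocyte score, 0 with both scores and 1 to 6 with single libraries left out: 1 without LFD replicate 1 or 2 or KD replicate 2 or 3, and 2 without LFD replicate 3 or KD replicate 1. The members' median of 0.38 was 0.54 with the lymphocyte score, 0.26 with both scores and -0.17 by totals, where 4 members had a higher mean and the median over all genes was -0.59. For HFD against LFD, DESeq2 called 1 gene of the wider list against 0, and the median of 0.13 was 0.32 by totals, where that over all genes was 0.20. For KD against HFD, members called went from 0 to 7 (DESeq2, 8.18% of all genes), 2 (no filter, 1.02%) and 0 to 9 with single libraries left out, the 9 without KD replicate 4 (9.84%); the wider list went to 6 (DESeq2), 2 (no filter), 3 (totals) and 0 to 13, the 13 without KD replicate 4. The median of 0.24 was 0.12 with the acinar score and -0.57 by totals, where 3 members had a higher mean and the median over all genes was -0.81. The joint test went from 1 (2.17% of all genes) to 7 (DESeq2, 12.6%), 6 (limma-voom, 8.58%), 4 (no filter, 3.93%), 0 (at least 5 CPM in 3 libraries, 1.28%), 0 (lymphocyte score, 0 of all genes), 0 (both scores, 0.253%) and 0 (totals, 8.21%). Single libraries left out gave 0 to 14: 14 without KD replicate 4 (10.02%), 2 without LFD replicate 3 (4.43%) and 0 without any other library (0.196% to 0.805%).

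The labels number the libraries alike in each diet. Same-numbered LFD and KD libraries had correlations of 0.22, -0.016 and -0.0026 in their deviations, and not every library correlated best with its own number. With so few libraries per diet, such correlations cannot decide whether equal numbers mean a pairing. KD replicate 4 is the only library numbered 4, so a block by replicate number fits it exactly and leaves it out of the diet differences. With a replicate block, members called were 12 for KD against LFD (all higher), 10 for KD against HFD (9 higher, and Ppargc1a lower) and 17 in the joint test, and the wider list gave 7, 14 and, for HFD against LFD, 1. The block called 10.8% of all genes for KD against LFD, 12.5% for KD against HFD and 15.2% in the joint test. Under the block the median for KD against HFD was 0.33 and Fabp3 for KD against LFD was -0.33, as it was without KD replicate 4 (-0.33).

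Other values changed sign for KD against LFD, none of them called. With the acinar score, Ppara was -0.21, Acsl1 -0.30, Acsl3 -0.19, Acadm -0.045 and Hadhb 0.044. With the lymphocyte score, Ppargc1a was -0.68, Angptl4 -0.57, Acsl3 -0.33, Acsl5 0.20, Slc25a20 -0.28, Hadh -0.19, Eci2 -0.38, Decr1 -0.13, Decr2 -0.13 and Acaa1b -1.81. With both scores, Ppargc1a was -0.38, Angptl4 -0.49, Acsl1 -0.31, Acsl3 -0.60, Acsl5 0.27, Slc25a20 -0.12, Etfa -0.29, Echs1 -0.18, Eci2 -0.44, Decr1 -0.41, Decr2 -0.050, Ehhadh -0.12 and Acaa1b -1.02. Fabp3 was -0.0758 by limma-voom, and Acsl3 -0.040 with at least 5 CPM in 3 libraries. With single libraries left out, Fabp3 ranged from -0.33 to 0.45, Acsl1 from -0.025 to 0.34, Acsl3 from -0.024 to 0.12, Hadhb from -0.18 to 0.042 and Acaa1b from -0.0056 to 0.95. For HFD against LFD, Ppargc1a was -0.17 with both scores. For KD against HFD, Ppara was -0.040, Crat -0.078 and Echs1 -0.17 with the acinar score, and Echs1 was -0.27 with both.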
